A study of Homo sapiens with 21 samples.

Results

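The replication-dependent histone genes of SK-N-BE(2) neuroblastoma cells were covered by 65 of the 367900 consensus accessible sites measured by ATAC-seq, the assay in which Tn5 transposase cuts open chromatin. A site was taken when its nearest gene, as named in the deposited site annotation, began with HIST1H, HIST2H, HIST3H or HIST4H, which gave 50 HIST1, 7 HIST2, 5 HIST3 and 3 HIST4 sites carrying 47 different gene names. Every library came from SK-N-BE(2) cells, an established line, 72 h after lentiviral transduction with shRNA, with 3 libraries in each of 7 groups. Control cells carried a non-silencing shRNA. Cells of shARID1A.2 and shARID1A.4 carried 1 of 2 shRNAs against ARID1A, cells of shARID1B.2 and shARID1B.3 carried 1 of 2 against ARID1B, and cells of shARID1A/B.2.3 and shARID1A/B.4.2 carried a pair, 1 against each gene. ARID1A and ARID1B are mutually exclusive DNA-binding subunits of the BAF chromatin remodeller, and the design asks how accessibility responds to the loss of either or both. ATAC-seq does not measure the RNA of ARID1A and ARID1B, so the labels were not checked against knockdown. Each library is of bulk cells, in which more cells with an open site and a more open site per cell cannot be told apart. The labels do not say whether the 3 libraries of a group came from separate transductions, so p-values measure only the spread between these libraries.

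Replication-dependent histone genes supply the H1, H2A, H2B, H3 and H4 proteins that package newly copied DNA. They are short, mostly intronless, and transcribed mainly in S phase from clustered copies, the largest group lying on chromosome 6p. Their transcripts end in a stem-loop rather than a poly(A) tail, and NPAT at nuclear histone locus bodies activates their transcription. Many H2A and H2B genes stand head to head and share 1 promoter, so a single accessible site can serve a pair of genes and carries only the name of the nearer start.

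Promoter sequences of 4 genes are shown because they carry the contrast between sites that opened and 1 that was not called. They are the 250 bases upstream of the RefSeq start (GRCh38.p14), read 5′ to 3′ on the gene's strand, with every match on either strand to the octamer ATTTGCAT, to TATAAA, to CCAAT or to the H4-type element GGTCCG in capitals.
HIST2H2AC, chr1:149886668-149886917, plus strand: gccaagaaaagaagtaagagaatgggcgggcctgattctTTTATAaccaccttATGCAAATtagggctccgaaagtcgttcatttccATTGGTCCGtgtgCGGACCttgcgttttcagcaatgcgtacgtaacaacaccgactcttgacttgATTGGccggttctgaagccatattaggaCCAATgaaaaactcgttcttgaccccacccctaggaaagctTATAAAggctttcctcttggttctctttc
HIST1H3H, chr6:27809801-27810050, plus strand: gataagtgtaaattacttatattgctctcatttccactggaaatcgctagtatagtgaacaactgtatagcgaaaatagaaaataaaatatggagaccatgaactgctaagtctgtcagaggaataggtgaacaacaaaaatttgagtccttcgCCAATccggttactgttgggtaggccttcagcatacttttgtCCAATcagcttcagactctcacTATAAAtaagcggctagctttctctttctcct
HIST1H4B, chr6:26027284-26027533, minus strand: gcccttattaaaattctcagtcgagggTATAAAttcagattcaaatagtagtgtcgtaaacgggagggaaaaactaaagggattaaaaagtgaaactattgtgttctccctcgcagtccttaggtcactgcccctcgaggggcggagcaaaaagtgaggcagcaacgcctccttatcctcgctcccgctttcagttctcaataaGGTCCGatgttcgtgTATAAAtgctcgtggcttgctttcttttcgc
HIST4H4, chr12:14771132-14771381, minus strand: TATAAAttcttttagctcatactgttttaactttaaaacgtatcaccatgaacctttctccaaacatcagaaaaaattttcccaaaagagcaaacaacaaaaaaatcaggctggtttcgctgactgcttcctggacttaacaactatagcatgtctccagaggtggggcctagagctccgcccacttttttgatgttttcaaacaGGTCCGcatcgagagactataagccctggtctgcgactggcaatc
The HIST2H2AC promoter is read in the opposite direction by HIST2H2BE, and both genes lie under 1 site. Of the 66 histone genes with a RefSeq promoter in the reference used, 14 of 18 H2B and 11 of 16 H2A promoters held the octamer in these 250 bases, against 1.66% of all 27305 promoters. CCAAT stood in every H2A, H2B, H3 and H1 promoter and in 3 of 13 H4 promoters, against 33.0% of all promoters. The element GGTCCG stood in 12 of 13 H4 promoters, HIST4H4 and HIST1H4B among them, against 9.33% of all promoters. In the HIST2H2AC promoter a CCAAT match on the minus strand overlaps a GGTCCG match. A match is a string of letters and not a measured binding site.

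Of the 65 sites, 37 lay within 1000 bases of the named start and are called start-site sites, and all 37 passed the filter on low counts. The other 28 sites lay farther away, and 26 of them passed. Because the genes are so short, the annotation placed only 24 of the 37 start-site sites in a promoter, with 10 at a transcription end and 3 in an exon. At least 1 RefSeq histone start lay inside 32 of the 37 sites, and 2 or more lay inside 17. The start-site sites were long, with a median of 2183 bases, and open, with a median of 10.2 CPM (the read count relative to the scaled size of its library) per kb and a range of 1.28 to 19.8. The median over all tested promoter sites was 7.35 CPM per kb, that over the 26 distant histone sites 2.37, and that over all 357029 tested sites 1.37. Median GC content was 50.8% at the histone start-site sites and 59.1% at all tested promoter sites. Histone genes are near-identical copies of one another, so reads may have been placed among copies with some uncertainty.

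Library depth ran from 16140029 to 44472230 reads in sites, and the deepest libraries were shARID1B.3 replicates 1 and 2 and shARID1A/B.2.3 replicate 2. Promoter sites held 19.98% to 20.58% of the reads in Control and 20.9% to 25.1% in the silenced libraries, so promoters as a class stood higher in every silenced library. Of the neuroblastoma genes DBH, GATA3, HAND2, ISL1, PHOX2A and TH, 5 of 6 had a tested start-site site, of 3.11 to 47.3 CPM. Of PTPRC, CD3E, ALB and MYOD1, genes of other cell types, only MYOD1 had one, at 13.6 CPM and 977 bases from its start.

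Summed accessibility of the HIST1 cluster was higher than in Control in all 6 silenced groups, and no silenced library reached down to the Control range. The 3 Control libraries held 538.9 to 562.9 CPM over the 50 HIST1 sites, with a mean of 554 ± 12.9 (SD, n = 3). The shARID1B.3 libraries stood highest, at 705.5 to 815.5 CPM with a mean of 771 ± 57.7 (n = 3), which was 1.39 times the Control mean. The shARID1A/B.2.3 mean was 696 ± 30.9 and the shARID1A/B.4.2 mean 677 ± 12.5 (n = 3 each). The other groups came lower, with means of 640 ± 23.3 for shARID1B.2 and 605 ± 22.7 for shARID1A.4 (n = 3 each) and a range of 582.5 to 661.1 for shARID1A.2, and these ranges overlapped one another. With libraries scaled on promoter sites in place of all sites, the sign of the HIST1 difference turned in shARID1A.4, to -0.12 on the log2 scale, and in shARID1A/B.4.2, to -0.03, and it stayed positive in the other 4 groups.

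HIST2 took in the sites of the 1q21 cluster and 3 sites apart from it, at chr1:121116617-121132109. It had sums of 107.6 to 117.7 CPM in Control and of 158.4 to 169.2 CPM in shARID1A/B.4.2. The shARID1A/B.4.2 mean was 1.47 times the Control mean and the highest of the groups under scaling on all sites. Every silenced library was also above every Control library here. HIST2 sums were 154.9 ± 9.68 in shARID1B.3 and 151.8 ± 5.93 in shARID1B.2, while shARID1A.2 stood at 130.4 ± 6.40 and shARID1A.4 at 137.3 ± 2.17 (SD, n = 3 each). HIST3 on 1q42 rose from 44.5 ± 4.20 CPM in Control to between 52.1 ± 1.73 in shARID1B.2 and 61.7 ± 2.47 in shARID1A/B.4.2, again with no overlap with Control. Under promoter scaling the order changed, with HIST2 differences of 0.34 in shARID1B.2, 0.26 in shARID1B.3 and 0.23 in shARID1A/B.4.2 on the log2 scale and HIST3 differences of 0.25 in shARID1B.3 and 0.15 in shARID1A/B.4.2. HIST4, a single gene on chromosome 12, was the exception. Its sum was 34.0 ± 1.71 CPM in Control, and the libraries of 4 of the 6 silenced groups overlapped the Control range. In shARID1A.4 and shARID1A/B.4.2 its sums were 39.9 ± 2.19 and 39.9 ± 0.732 CPM, above Control, with the sign of both differences turned under promoter scaling. No test was made of these sums.

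**Figure D1:**
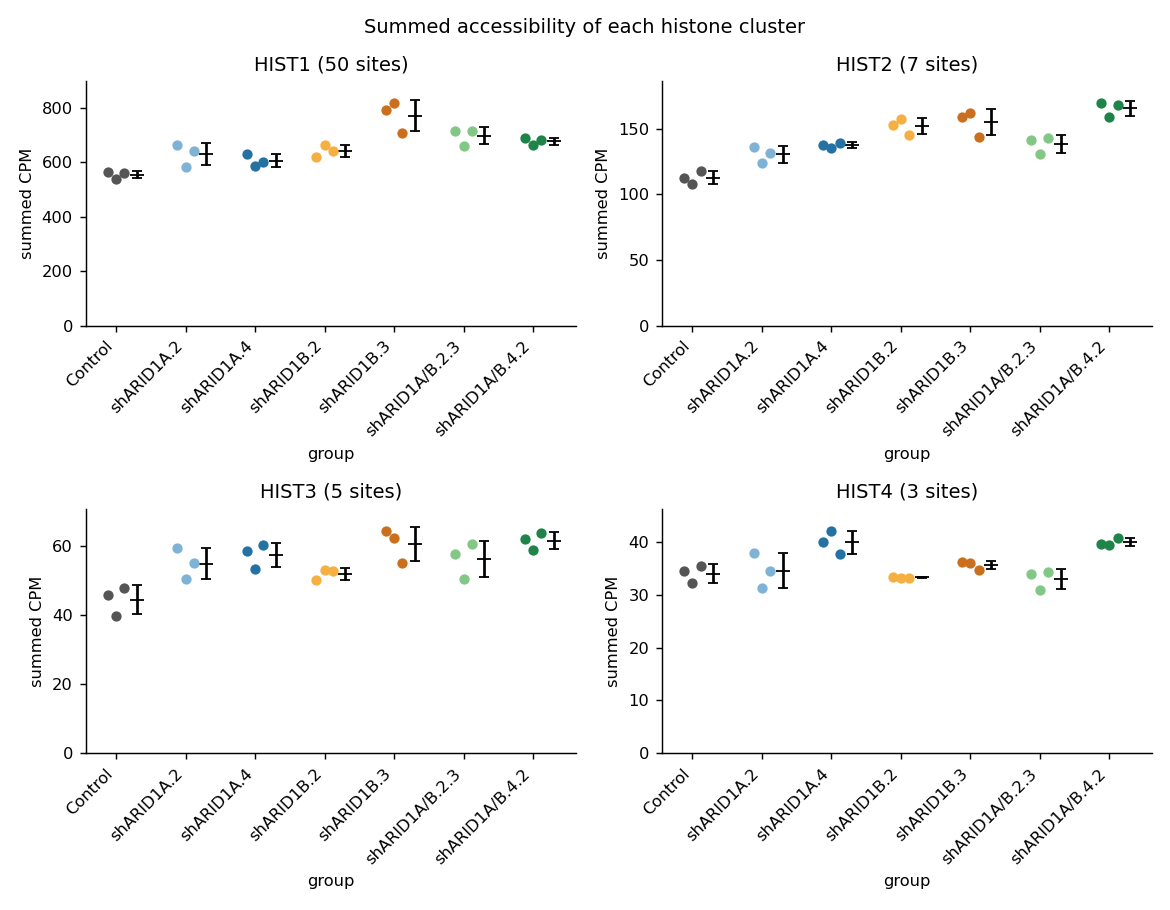
Summed CPM of the sites of each histone cluster (vertical axis, from 0) in each of the 21 libraries (points), by group, with the mean and SD of 3 libraries beside them. All silenced libraries lie above the Control range in HIST1, HIST2 and HIST3, while HIST4 overlaps it in 4 groups, and scaling on promoter sites turns the HIST1 and HIST4 differences of shARID1A.4 and shARID1A/B.4.2 below 0.

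When both genes were silenced, most histone start-site sites opened in the mean of both combinations under scaling on all sites. In shARID1A/B.4.2 alone 18 of the 37 did. In the mean of both combinations against Control, 24 of the 37 start-site sites opened and 1 closed at an FDR under 0.01, with a median log2 change of 0.35. Over all 63 tested histone sites 26 opened and 2 closed. The background was 3.43% opened and 10.3% closed over all tested sites, and 33.4% opened with a median of 0.23 over tested promoter sites, so the histone share lay above that of promoters. The start-site sites also held more reads, with a median of 20.25 CPM against 12.39 CPM over tested promoter sites. A site with more reads is more easily called, and the shares were not compared at matched reads. Scaling on promoter sites lowers the median change of all sites from 0.03 to -0.20 and that of promoters from 0.23 to -0.0037. It left 6 start-site sites opened, and over all tested histone sites 6 opened and 2 closed. The shares of all sites and of promoters called under promoter scaling are not given here. Taken alone, shARID1A/B.2.3 opened 21 start-site sites and 22 histone sites in all, where 2.85% of all sites and 15.6% of promoters opened. It closed 1 histone site, where 10.4% of all sites closed. The pair shARID1A/B.4.2 opened 18 start-site sites and 22 in all, against 3.97% of all sites and 40.4% of promoters. Under promoter scaling the histone sites opened fell to 12 in shARID1A/B.2.3 and to 1 in shARID1A/B.4.2, and with abundance-trended offsets they numbered 25 and 10. The pair shARID1A/B.4.2 closed 2 histone sites, against 7.37% of all sites, and without either replicate 1 or replicate 3 of shARID1A/B.4.2 the 22 fell to 14.

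Genes for H4, the histone whose dimer with H3 forms the core of the nucleosome, were among the sites that opened most. HIST1H4C, at chr6:26103332-26104632 34 bases from its named start, had 6.21, 7.36 and 8.54 CPM in the Control libraries. It had 12.8, 10.7 and 12.6 CPM in shARID1A/B.2.3 and 10.5, 9.89 and 10.4 CPM in shARID1A/B.4.2. All 6 combination libraries were above all Control libraries, and the log2 change was 0.58 ± 0.10 (SE, adjusted p = 2.67e-06, edgeR quasi-likelihood test). HIST1H4B, at chr6:26026161-26027444, whose promoter is printed above, had 9.45 to 10.2 CPM in Control and 13.1 to 15.6 CPM over both combinations. Its log2 change was 0.53 ± 0.09 (adjusted p = 1.80e-06). HIST1H4K and HIST1H4J, near the far end of the cluster at chr6:27830477-27831876 and chr6:27823659-27825158, rose by 0.52 ± 0.11 and 0.45 ± 0.11. Of the 9 start-site sites in which every start listed in the RefSeq promoter table is an H4 start, 7 opened, against 33.4% of promoters. The 9 sites include the one named for HIST1H3I and leave out that of HIST1H4C, since neither gene has an entry in that table.

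Sites of H3 genes opened as well. HIST1H3H, a site of 595 bases at chr6:27809911-27810505 that covers the exon of the gene, had 6.11, 6.66 and 6.57 CPM in Control. It had 10.8, 8.85 and 10.2 CPM in shARID1A/B.2.3 and 9.72, 9.48 and 10.3 CPM in shARID1A/B.4.2. The groups did not overlap, and the change of 0.61 ± 0.11 (adjusted p = 2.36e-06) was the largest rise of any histone site tested. The site named for HIST1H3I, at chr6:27871759-27873946, which also covers the HIST1H4L start, rose by 0.50 ± 0.09. HIST1H3F, the H3-named site with the most reads, at 20.3 CPM over all libraries, rose by 0.35 ± 0.08 (adjusted p = 8.01e-04), a call lost under promoter scaling, where the change was 0.11.

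H2A and H2B genes, which encode the outer pair of the nucleosome, were read mostly in pairs. The HIST2H2AC site at chr1:149885446-149888854 covers the starts of HIST2H2AC, HIST2H2BE and HIST2H2AB and held the most reads of all histone sites, at 58.3 CPM over all libraries or 17.1 CPM per kb. It had 46.5, 40.8 and 46.0 CPM in Control, 61.5, 56.0 and 61.5 CPM in shARID1A/B.2.3 and 66.9, 65.5 and 66.7 CPM in shARID1A/B.4.2. No combination library fell to the Control range, and the change was 0.50 ± 0.07 (adjusted p = 2.91e-08). HIST1H2BB, whose site also covers HIST1H3C, and HIST1H2BG, whose site also covers HIST1H2AE, each rose by 0.47 ± 0.08. HIST3H2BB, the HIST3 site with the most reads, at chr1:228457154-228459642, rose from 39.0 ± 3.00 CPM in Control to 49.9 ± 4.29 and 54.2 ± 1.34 CPM in the combinations, a log2 change of 0.41 ± 0.07. HIST1H2AK, the HIST1 site with the most reads, rose by 0.30 ± 0.08, and its value under promoter scaling was 0.06. Of the 10 start-site sites with both an H2A and an H2B start in the RefSeq table, 6 opened, against 33.4% of promoters.

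**Figure D2:**
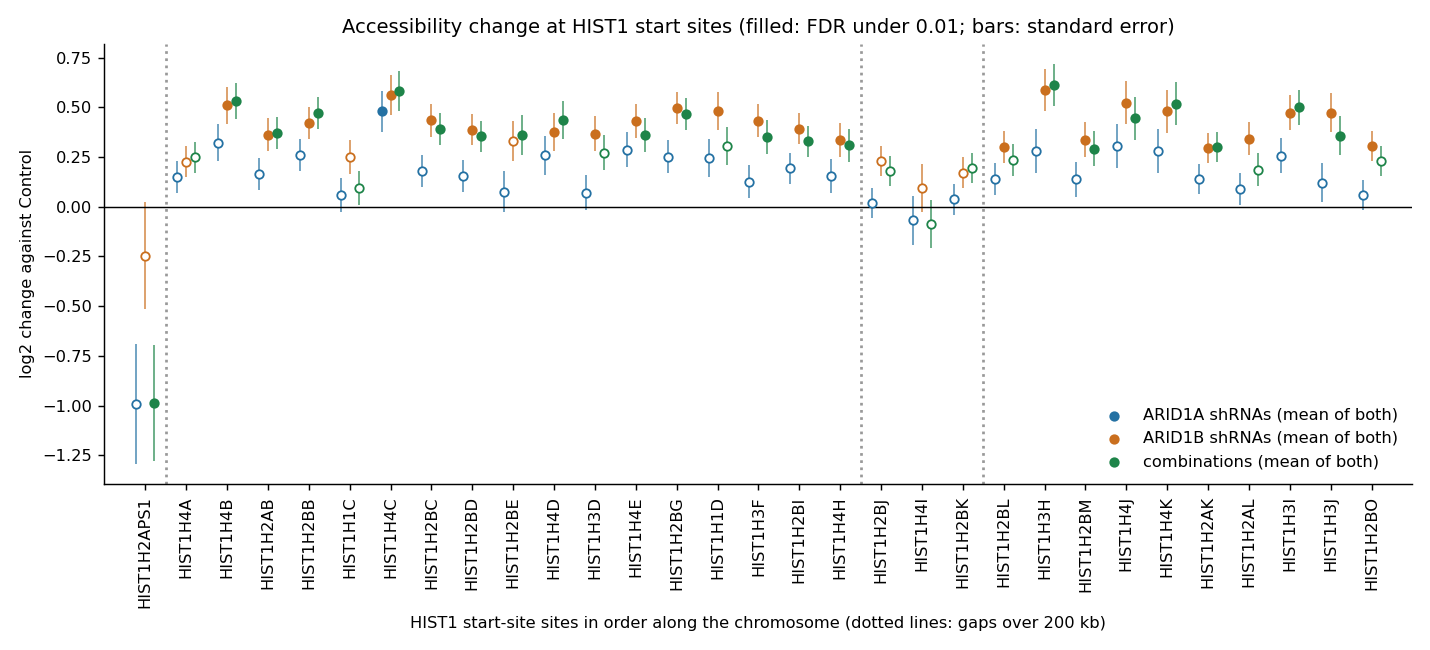
Log2 change against Control (vertical axis, bars are the standard error) of the 31 HIST1 start-site sites in their order along the chromosome, for the means of both ARID1A shRNAs, both ARID1B shRNAs and both combinations. Filled points passed an FDR of 0.01, and the 3 sites between the middle dotted lines, HIST1H2BJ, HIST1H4I and HIST1H2BK, have open points throughout.

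Sites that hold only a linker histone H1 start were not called in the combinations. HIST1H1C, which had more reads than the other such site, at chr6:26054517-26057169, had 14.4 to 15.6 CPM in Control and 14.9 to 17.2 CPM in the combination libraries. Those ranges overlapped, with a log2 change of 0.09 ± 0.09 (adjusted p = 0.523). The other such site, HIST1H1D, changed by 0.31 (adjusted p = 0.0126) and was opened by ARID1B silencing, and HIST1H2BD, whose site also covers HIST1H1E, rose by 0.35 in the combinations. HIST4H4 on chromosome 12, at chr12:14769581-14771268, had 30.1 to 33.4 CPM in Control, 28.9 to 31.7 in shARID1A/B.2.3 and 37.3 to 38.4 in shARID1A/B.4.2. The first of these ranges overlapped Control and the second lay above it, and the mean change was 0.09 ± 0.07 (adjusted p = 0.448). Under promoter scaling the summed HIST4 difference was below 0 in both, at -0.20 and -0.09 on the log2 scale. The difference between these sites and the ones that opened was not tested.

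**Figure D3:**
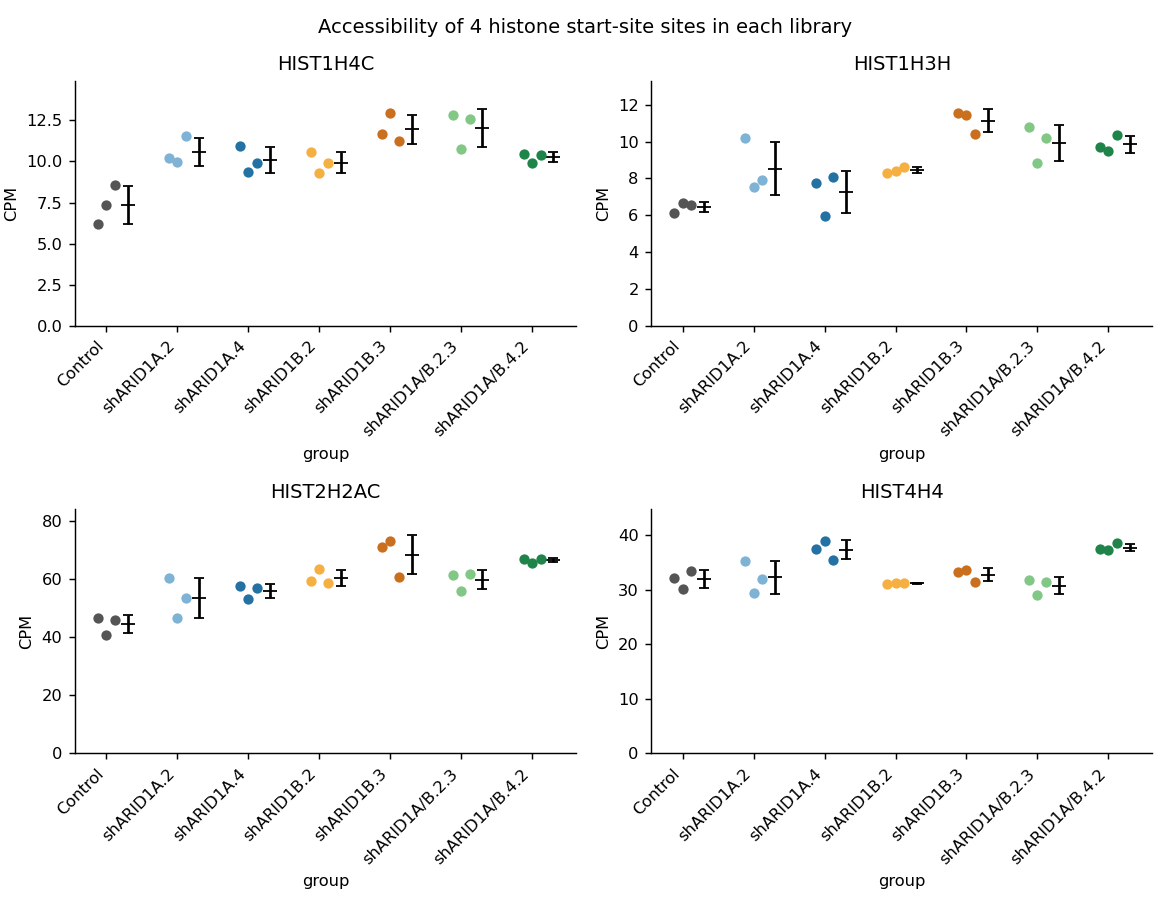
CPM (vertical axis, from 0) of the start-site sites of HIST1H4C, HIST1H3H, HIST2H2AC and HIST4H4 in each library, by group, with the mean and SD of 3 libraries. HIST1H3H rises from 6.45 CPM in Control to 11.1 CPM in shARID1B.3, and HIST4H4 lies at 31.9 and 32.7 CPM in the same groups.

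The stretches of HIST1, separated by gaps over 200000 bases, differed in their counts. At chr6:25991783-26286600, 13 of 17 start-site sites opened in the combinations, and at chr6:27806718-27895720, 7 of 10 did. Between them, at chr6:27114812-27147635, none of the 3 start-site sites was called in the combinations or with either gene alone averaged over its shRNAs. Of all promoters, 33.4% opened in the combinations, 17.8% with ARID1A silencing and 9.33% with ARID1B silencing. With so few sites 0 of 3 says little, and the difference between stretches was not tested. HIST1H2BJ changed by 0.18 (adjusted p = 0.0834) in the combinations, and HIST1H4I by -0.09 (adjusted p = 0.695), while shARID1B.3 alone opened HIST1H2BJ by 0.39 and HIST1H2BK by 0.40. At the near end, HIST1H2APS1, a pseudogene site at chr6:25731982-25732394, was the 1 start-site site that closed. It held few reads, with 0.914, 0.616 and 0.802 CPM in Control against 0.427, 0.627 and 0.440 CPM in shARID1A/B.2.3 and 0.179, 0.414 and 0.278 CPM in shARID1A/B.4.2. Its change of -0.99 ± 0.29 (adjusted p = 8.15e-03) was not called by DESeq2 (adjusted p = 0.0347). Nor was it called by edgeR without any 1 of 10 libraries, which were Control replicates 1 and 3, shARID1A.2 replicate 2, shARID1A.4 replicate 1, shARID1B.3 replicates 1 and 2, shARID1A/B.2.3 replicates 1 and 3 and shARID1A/B.4.2 replicates 1 and 3, with changes between -0.98 and -0.83.

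Averaged over their shRNAs, ARID1B silencing opened more histone sites than ARID1A silencing, with the higher count in 1 of the 2 ARID1B shRNAs. Taken alone, shARID1B.3 opened 32 start-site sites and shARID1B.2 opened 5, beside 5 and 4 for the ARID1A shRNAs. The mean of both ARID1B shRNAs opened 28 of the 37 start-site sites and 32 of the 63 tested histone sites, with none closed, where 1.39% of all sites opened and 3.53% closed and 9.33% of promoters opened. Without Control replicate 2 the 32 fell to 20, and with every library thinned to the shallowest depth to 19. The mean of both ARID1A shRNAs opened 4 start-site sites and 4 histone sites in all and closed 1, where 1.67% of all sites opened and 5.37% closed and 17.8% of promoters opened. The ARID1A count was 2 without Control replicate 1 or Control replicate 2, 9 without shARID1A.2 replicate 2, 8 without shARID1A/B.2.3 replicate 2, and 7 without shARID1B.3 replicate 2 or shARID1A/B.2.3 replicate 1 or replicate 3. Under promoter scaling these start-site counts were 17 for ARID1B and 0 for ARID1A. Median changes over promoters were then -0.019 and -0.017, and the shares of promoters called are not given here. Median changes of the 37 sites were 0.38 for ARID1B and 0.16 for ARID1A, whereas promoters at large had medians of 0.13 and 0.18. By these medians promoters as a class moved slightly more with ARID1A, and the histone start sites more with ARID1B. The 4 sites opened by ARID1A silencing were HIST1H4C, HIST2H2AC, HIST2H2BF and HIST3H2BB, and each was also opened by ARID1B silencing.

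The direct comparison, added after those counts were known, put 10 of 37 start-site sites higher with ARID1B than with ARID1A silencing and none lower, against 2.35% of promoters higher. In that direction 30 of the 37 had an unadjusted p under 0.05. The share of promoters at that cut-off is not given here, and the median difference over tested promoter sites was -0.05. HIST1H3F had 19.1, 21.1 and 19.2 CPM in shARID1B.2 and 26.4, 28.0 and 22.9 CPM in shARID1B.3, against 16.7 to 19.7 CPM over all 6 ARID1A libraries. Its difference was 0.31 ± 0.07 (adjusted p = 7.03e-04), and 2 of the 3 shARID1B.2 libraries fell within the ARID1A range. HIST1H4C differed by only 0.08 ± 0.08 (adjusted p = 0.680). The 10 fell to 2 without shARID1A.2 replicate 2 or shARID1B.3 replicate 2, to between 3 and 6 without shARID1A.4 replicate 2, shARID1B.2 replicate 2, shARID1B.3 replicate 1, shARID1A.4 replicate 1 or shARID1A.2 replicate 3, and to 5 of all histone sites with every library thinned to the shallowest depth. Under promoter scaling 24 were higher, and the share of promoters higher under that scaling is not given here.

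The ARID1B shRNAs did not act with equal strength. Opened start-site sites numbered 32 of 37 in shARID1B.3, where 16.6% of promoters opened, and 5 in shARID1B.2, where 3.11% did. For the ARID1A shRNAs they were 5 in shARID1A.2, against 6.91% of promoters, and 4 in shARID1A.4, against 20.2%. The medians of the 37 sites were 0.51 in shARID1B.3, 0.24 in shARID1B.2, 0.21 in shARID1A.2 and 0.16 in shARID1A.4, where that of shARID1A.4 turned to -0.10 under promoter scaling and to -0.03 with abundance-trended offsets. All 37 fitted changes were positive in shARID1B.3 and 33 were in shARID1B.2. Over tested promoter sites the lower quartile of the change was -3.57e-05 in shARID1B.3 and -0.06 in shARID1B.2. Set directly against shARID1B.2, shARID1B.3 had 10 start-site sites higher and none lower, with 5.77% of promoters higher. HIST1H2BK was the clearest, 0.45 ± 0.09 higher (adjusted p = 7.04e-05), and HIST1H4K differed by 0.03 ± 0.12.

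Depth moved with that difference, since shARID1B.3 replicates 1 and 2 were the deepest pair of libraries of 1 group, and their HIST1 sums of 790.5 and 815.5 CPM exceeded the 705.5 CPM of replicate 3, of 23104850 reads. With every library thinned to the shallowest depth, 28 start-site sites opened in shARID1B.3 and 6 stood higher than in shARID1B.2. Leaving out shARID1B.3 replicate 1 or replicate 2 left 3 histone sites higher than in shARID1B.2, and leaving out replicate 3 gave 16. Without shARID1B.2 replicate 1, replicate 2 or replicate 3 the counts were 3, 6 and 2. In shARID1A/B.2.3 the deepest library, replicate 2, had the lowest HIST1 sum of its group, 660.3 CPM. Whether depth had a part in the difference between the ARID1B shRNAs was not tested beyond the thinned counts.

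**Figure D4:**
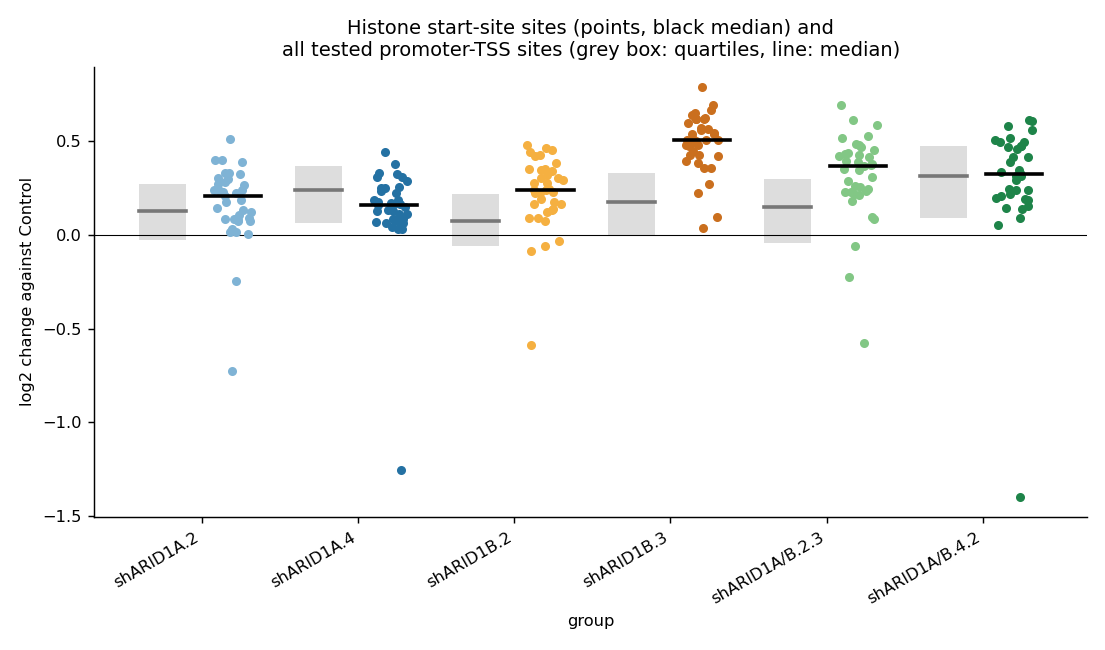
Log2 change against Control (vertical axis) of the 37 histone start-site sites (points, black line the median) in each silenced group, beside the median and quartiles of all tested promoter-TSS sites (grey). The histone median lies above the promoter quartile box in shARID1B.3, at 0.51, in shARID1A/B.2.3, at 0.37, and in shARID1B.2, at 0.24, and near the promoter median in shARID1A/B.4.2, at 0.33, while that of shARID1A.4, at 0.16, falls below 0 under promoter scaling or abundance-trended offsets.

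Few or no histone sites differed between the combinations and the mean of the 4 single-shRNA groups, depending on the scaling. That mean pools groups of unlike medians, and no combination was tested against its own single shRNAs. Set against the mean of the 4 single-shRNA groups, the combinations had 0 histone sites higher and 0 lower by edgeR, where 0.969% of all sites were higher, 6.85% lower, and 6.57% of promoters higher. DESeq2 called 0 as well, whereas edgeR called 3 higher with abundance-trended offsets and 1 with scaling on total counts. Of the 37, 5 start-site sites had an unadjusted p under 0.05, all higher in the combinations. The share of promoters at that cut-off is not given here. The median difference over the 37 start-site sites was 0.06, beside 0.07 over tested promoter sites. HIST1H3H had the largest fitted difference among them, 0.18 ± 0.07 (adjusted p = 0.0883), and HIST1H4C had 0.06 ± 0.07.

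With ARID1B silencing 4 of the 26 tested sites beyond 1000 bases opened, where 1.39% of all tested sites did. In the combinations 2 of the 26 opened and 1 closed, where 3.43% of all tested sites opened and 10.3% closed. The 2 that opened were a HIST1H3E site at chr6:26222790-26225391, which in fact covers the RefSeq start of that gene, with a change of 0.33 ± 0.09, and a HIST1H1A site at chr6:25991783-25993205, 25318 bases from the named start, with 0.29 ± 0.08. Neither kept its call under promoter scaling, where the changes were 0.10 and 0.05, or without Control replicate 2, Control replicate 3 or shARID1A/B.4.2 replicate 3, and that of HIST1H1A was also lost without shARID1A/B.2.3 replicate 3 or shARID1A/B.4.2 replicate 2. The site that closed, named for the testis gene HIST1H2AA but 12456 bases from its start at chr6:25713886-25714327, had 0.914, 0.863 and 0.882 CPM in Control. It had 0.460, 0.372 and 0.440 CPM in shARID1A/B.2.3 and 0.224, 0.460 and 0.464 CPM in shARID1A/B.4.2. All 6 ARID1A libraries were also below Control, at 0.188 to 0.494 CPM, and the ARID1B libraries lay between, at 0.513 to 0.846. The fall was -1.14 ± 0.27 in the combinations and -1.24 ± 0.28 with ARID1A silencing (adjusted p = 8.71e-04), against -0.43 ± 0.25 with ARID1B silencing (adjusted p = 0.352). DESeq2 also called the fall in the combinations (adjusted p = 5.68e-03) and gave no adjusted p for ARID1A silencing.

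The 2 distant HIST2 sites that opened with ARID1B silencing lie in the near-identical inverted copies of 1q21, where reads cannot be placed with certainty. They are named HIST2H2AA3, at chr1:149843206-149846282, and HIST2H2BC, at chr1:149847680-149850634, and held 3.96 and 4.76 CPM over all libraries. Their changes were 0.52 and 0.46 with ARID1B silencing and 0.19 and 0.24, not called, in the combinations. The 3 sites named HIST2H2BA lie apart from that cluster, at chr1:121116617-121132109, and the start-site one of these rose by 0.37 in the combinations (adjusted p = 2.01e-05).

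The HIST1 cluster is shared with transfer RNA genes, which RNA polymerase III transcribes, and most of these sites opened with ARID1B silencing. The span between the outermost HIST1 start-site sites held 76 start-site sites of other genes, 58 named for tRNA genes and 18 for others, a split made after the values were seen. With ARID1B silencing 37 of the 58 tRNA sites opened, with a median of 0.55, and with ARID1A silencing 0 did, with a median of 0.02, where 9.33% and 17.8% of promoters opened. Both ARID1B shRNAs gave this, with 33 opened in shARID1B.2 and 30 in shARID1B.3, against 3.11% and 16.6% of promoters. TRNAS15, at chr6:27671909-27673045, rose by 0.99 with ARID1B silencing and changed by -0.14 with ARID1A silencing. Of the 18 other sites, 2 opened with ARID1B silencing, with a median of 0.08. In the combinations 6 of the 58 tRNA sites opened, against 33.4% of promoters, with a median of 0.21, beside a median of 0.35 for the 31 HIST1 start-site sites. In the combinations most tRNA sites were thus not called, whereas 20 of the 31 HIST1 start-site sites were opened. Most tRNA sites held fewer reads than the median histone start-site site, of 20.25 CPM. Sites with fewer reads are less easily called, and these counts were not compared at matched reads. The tRNA counts under other scalings or without single libraries are not given here. Between the ARID1B shRNAs, shARID1B.3 had 10 HIST1 start-site sites higher than shARID1B.2 and 0 tRNA sites higher, with 5 lower. No test of the difference between these classes was made.

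**Figure D5:**
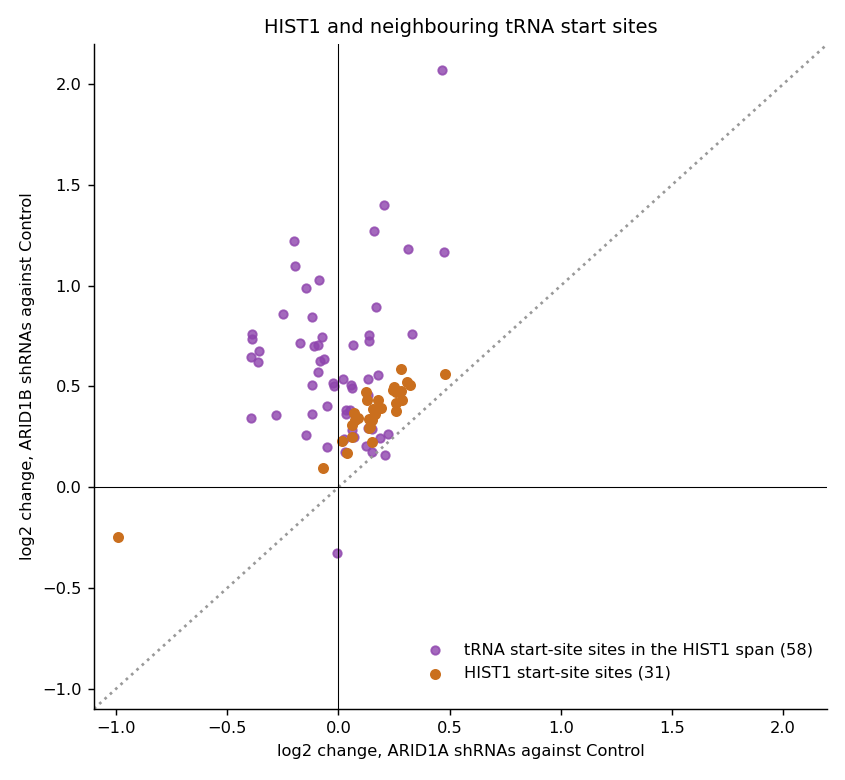
Log2 change with ARID1B shRNAs (vertical axis) against that with ARID1A shRNAs (horizontal axis), each relative to the same Control libraries, for the 31 HIST1 start-site sites and the 58 tRNA start-site sites between them. Points above the dotted line of equal change moved more with ARID1B silencing, and the tRNA sites reach 2.07 on the vertical axis while the HIST1 sites end at 0.59. The site at 2.07, TRNAT18, held few reads, at 0.565 CPM over all libraries, and its standard error was 0.36.

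Genes that drive and process histone transcripts were given by a list, of which 15 had a consensus site and 13 a tested start-site site. NPAT, the histone gene coactivator, whose promoter it shares with ATM, rose by 0.25 ± 0.07 in the combinations (adjusted p = 2.82e-03), a change that turned to -0.18 with abundance-trended offsets, was 0.01 under promoter scaling and lost its call without Control replicate 1 or Control replicate 3. SLBP, which binds the stem-loop of histone transcripts, rose by 0.34 ± 0.09 (adjusted p = 1.96e-03). That call was lost by DESeq2 (adjusted p = 0.0113), under promoter scaling, where the change was 0.11, with GC or abundance-trended offsets, on thinning to the shallowest depth and without Control replicate 2. Its call with ARID1A silencing was lost under the same scalings, offsets, tool and thinning and without any 1 of 9 libraries, which were Control replicates 1 and 2, shARID1A.2 replicates 1 and 3, shARID1A.4 replicates 1 and 2, shARID1B.2 replicates 1 and 3 and shARID1A/B.4.2 replicate 3. CASP8AP2, a component of the histone locus body, changed by 0.18 ± 0.07 (adjusted p = 0.0674), and the only start-site site of HINFP, the factor that binds H4 promoters, held 0.504 CPM and changed by -0.46 ± 0.30. Of the 13 start-site sites of that list 6 opened in the combinations, 2 with ARID1A silencing and 0 with ARID1B silencing, where 33.4%, 17.8% and 9.33% of all promoters opened. Of the 10 start-site sites of replication-independent histone genes, 8 opened in the combinations, 6 with ARID1A silencing and 4 with ARID1B silencing. In that order, H2AFX rose by 0.55, 0.46 and 0.44 and H3F3B by 0.54, 0.39 and 0.46. H2AFX is listed with these genes, although its transcripts can end in a stem-loop or in a poly(A) tail. Histone chaperone genes had 3 of 7 start-site sites opened in the combinations, 2 with ARID1A silencing and 1, that of HIRA, with ARID1B silencing. No test was made of any of these lists.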

How the data were processed

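ATAC-seq was analysed in 21 libraries, 3 in each of 7 groups, taken from the sample labels. The authors counted reads per consensus site and deposited these raw counts in a table per comparison with Control, beside a site annotation; the 15 repeated Control columns were identical. Build GRCh38 and DESeq2 stand in the submitters' processing notes, and for the aligner and the peak caller the tool is not given in the sources used here. Fold changes and p-values that the authors deposited were not used. The annotation's distance to the nearest start, as deposited by the authors, defined start-site sites (within 1000 bases).

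Counts were tested with edgeR 4.0.16 in R 4.3.3 (quasi-likelihood test, TMM scaling, all 7 groups in 1 model, no covariate), after filterByExpr with a minimum count of 10 left 357029 sites. Benjamini-Hochberg adjustment ran over those sites, and a site was called at an FDR under 0.01, opened where higher than Control and closed where lower. CPM values use the same scaling. Alternatives were DESeq2 1.42.0, other scalings and filters, offsets for GC and abundance, a replicate block, leaving out each library and, added after seeing the data, thinning to the shallowest depth. Comparisons of ARID1B with ARID1A silencing, of both ARID1B shRNAs and of each single shRNA were added likewise. The fit was tested on simulated data.

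By rule, the named sites comprise the 10 start-site sites that changed most in the combinations, the site with the most reads of each cluster and histone class, called distant sites and 4 regulators; further names follow counts or were chosen after their values were seen. The histone sites, the pathway lists and the tests were chosen with earlier results of these data known. Some marker genes of the list are not reported here.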

Additional observations from a re-analysis of the deposited data

Results flagged for a closer look

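The effect of silencing differed between ARID1B and ARID1A at 10 histone start-site sites, each higher with ARID1B silencing by edgeR's test of the difference itself at an FDR under 0.01. On the log2 scale the H3-named sites differed by 0.30 at HIST1H3D, 0.31 at HIST1H3F, 0.31 at HIST1H3H and 0.35 at HIST1H3J. The sites named for H2A and H2B genes differed by 0.25 at HIST1H2BC, 0.23 at HIST1H2BD, 0.24 at HIST1H2BG, 0.25 at HIST1H2BO, 0.25 at HIST1H2AL and 0.23 at HIST2H2AC. No site named for an H4 gene was among them.

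The ARID1B shRNAs also differed from each other at 10 start-site sites, all in HIST1 and all higher in shARID1B.3 than in shARID1B.2. The H4-named sites differed by 0.48 at HIST1H4D and 0.37 at HIST1H4E, and the H3-named sites by 0.38 at HIST1H3F and 0.41 at HIST1H3H. The H2A and H2B sites differed by 0.31 at HIST1H2BD, 0.48 at HIST1H2BE, 0.31 at HIST1H2BJ, 0.45 at HIST1H2BK, 0.35 at HIST1H2BL and 0.33 at HIST1H2AL. Library depth moved with this comparison, and its part in the result was not tested beyond the thinned counts.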

How the results depend on the processing

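Direction and call were kept for most results under most alternatives. Scaling on promoter sites changed many, with 63 results the same, 46 moved, 17 weaker, 5 reversed and 1 stronger. With a log2 change of at least 1, 13 results were the same and 23 moved. At an FDR under 0.05, 20 were the same and 16 moved. A log2 change of at least 1 left 0 histone sites opened or higher in every comparison and 1 closed in both combinations. By DESeq2, histone sites opened numbered 7 in ARID1A silencing. There histone sites closed numbered 1 in both combinations, 0 in shARID1A/B.2.3, 0 in shARID1A/B.4.2, 0 in ARID1A silencing and 0 in shARID1A.4, where the HIST1H2AA site had no adjusted p with either. At an FDR under 0.05, histone sites opened numbered 9 in ARID1A silencing, 9 in shARID1A.2 and 16 in shARID1B.2. There histone sites closed numbered 2 in ARID1A silencing, 1 in shARID1A.2 and 2 in shARID1A.4. There histone sites higher numbered 1 in combinations against single shRNAs, 20 in ARID1B against ARID1A and 22 in shARID1B.3 against shARID1B.2. There histone sites lower numbered 1 in shARID1B.3 against shARID1B.2. With GC offsets, histone sites opened numbered 10 in ARID1A silencing, 9 in shARID1A.2 and 17 in shARID1B.2. There histone sites closed numbered 1 in both combinations and 1 in shARID1A/B.4.2. Scaled on promoter sites, histone sites opened numbered 6 in both combinations, 12 in shARID1A/B.2.3, 1 in shARID1A/B.4.2, 0 in ARID1A silencing, 17 in ARID1B silencing, 0 in shARID1A.2, 0 in shARID1A.4, 3 in shARID1B.2 and 21 in shARID1B.3. There histone sites closed numbered 2 in ARID1A silencing and 2 in shARID1A.4. There histone sites higher numbered 24 in ARID1B against ARID1A and 3 in shARID1B.3 against shARID1B.2. There histone sites lower numbered 1 in shARID1B.3 against shARID1B.2. Scaled on promoter sites, start-site medians were 0.063 in shARID1A.2, -0.10 in shARID1A.4, 0.15 in shARID1B.2, 0.30 in shARID1B.3, 0.22 in shARID1A/B.2.3 and 0.0036 in shARID1A/B.4.2. HIST1 sums then changed by 0.035 in shARID1A.2, -0.12 in shARID1A.4, 0.12 in shARID1B.2, 0.28 in shARID1B.3, 0.18 in shARID1A/B.2.3 and -0.033 in shARID1A/B.4.2 on the log2 scale. HIST2 sums then changed by 0.066 in shARID1A.2, 0.038 in shARID1A.4, 0.34 in shARID1B.2, 0.26 in shARID1B.3, 0.14 in shARID1A/B.2.3 and 0.23 in shARID1A/B.4.2 on the log2 scale. HIST3 sums then changed by 0.12 in shARID1A.4, 0.25 in shARID1B.3 and 0.15 in shARID1A/B.4.2 on the log2 scale. HIST4 sums then changed by -0.017 in shARID1A.4, -0.12 in shARID1B.2, -0.13 in shARID1B.3, -0.20 in shARID1A/B.2.3 and -0.091 in shARID1A/B.4.2 on the log2 scale. With abundance-trended offsets, histone sites opened numbered 10 in shARID1A/B.4.2, 1 in ARID1A silencing and 0 in shARID1A.4. There histone sites higher numbered 3 in combinations against single shRNAs and 21 in ARID1B against ARID1A. With abundance-trended offsets, start-site medians were -0.027 in shARID1A.4 and 0.14 in shARID1A/B.4.2. HIST1 sums then changed by -0.033 in shARID1A.4 and 0.11 in shARID1A/B.4.2 on the log2 scale. HIST2 sums then changed by 0.11 in shARID1A.2, 0.040 in shARID1A.4, 0.31 in shARID1B.3, 0.18 in shARID1A/B.2.3 and 0.24 in shARID1A/B.4.2 on the log2 scale. HIST3 sums then changed by 0.13 in shARID1A.4 and 0.16 in shARID1A/B.4.2 on the log2 scale. HIST4 sums then changed by 0.017 in shARID1A.4, -0.061 in shARID1B.3 and -0.039 in shARID1A/B.4.2 on the log2 scale. Thinned to the shallowest depth, histone sites opened numbered 19 in ARID1B silencing, 3 in shARID1A.2 and 4 in shARID1B.2. There histone sites closed numbered 0 in shARID1A/B.2.3, 1 in shARID1A/B.4.2, 2 in ARID1A silencing, 1 in shARID1A.2 and 2 in shARID1A.4. There histone sites higher numbered 5 in ARID1B against ARID1A and 6 in shARID1B.3 against shARID1B.2. Without the filter on low counts, histone sites opened numbered 7 in ARID1A silencing and 8 in shARID1A.2. Scaled on total counts, histone sites opened numbered 7 in ARID1A silencing, 9 in shARID1A.2 and 12 in shARID1B.2. There histone sites higher numbered 1 in combinations against single shRNAs. The NPAT change in both combinations was -0.18 with abundance-trended offsets. The cause of these shifts was not tested.

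On leaving out 1 library, histone sites closed numbered 1 to 2 in both combinations, 0 to 1 in shARID1A/B.2.3, 0 to 2 in shARID1A/B.4.2 and 0 to 1 in shARID1A.4. Those opened numbered 14 to 29 in shARID1A/B.4.2, 2 to 9 in ARID1A silencing, 20 to 33 in ARID1B silencing, 1 to 9 in shARID1A.2, 1 to 4 in shARID1A.4 and 2 to 11 in shARID1B.2. Those higher numbered 2 to 13 in ARID1B against ARID1A and 2 to 16 in shARID1B.3 against shARID1B.2. Those lower numbered 0 to 1 in shARID1B.3 against shARID1B.2. The HIST1 change of shARID1A/B.4.2 ran from 0.29 to 0.34. The shARID1A.2 count was lowest, at 1, without Control replicate 1 or shARID1A.2 replicate 1 or 3, and highest, at 9, without shARID1A/B.2.3 replicate 2. That of shARID1A.4 was 1 without Control replicate 2 or shARID1A.4 replicate 1 or 3. That of shARID1B.2 ran from 2, on leaving out Control replicate 1, to 11, on leaving out shARID1A/B.2.3 replicate 2.

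Replicate numbers did not pair the samples as a whole, since deviations of 63 same-numbered pairs correlated at a median of 0.005 and those of 126 other pairs at -0.004. Same-numbered pairs ran from -0.16 to 0.305 and other pairs from -0.188 to 0.144. The 0.305 was between replicate 2 of Control and replicate 2 of shARID1A/B.2.3. Whether some groups shared a batch was not tested. With a replicate block, 28 start-site sites opened in both combinations in place of 24, and 28 with ARID1B silencing as without it. Changes against Control share 3 libraries, and library depth limits the sites of few reads most.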
